A study of Mus musculus with 27 samples.

Results

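Pressure overload of the wild-type (WT) mouse left ventricle is described here from messenger RNA of 7 hearts, WT TAC 1, 17 and 19 and WT sham 6, 7, 13 and 15, across all 8987 listed genes. TAC is transverse aortic constriction, an operation that narrows the aortic arch so that the ventricle ejects against a raised pressure, and a sham operation leaves the aorta open. The hearts came from adult FVB mice without a transgene, taken 7 days after either operation, and each library was made from 1 ventricle. They were chosen by genotype and operation in the sample titles, and they are 7 of the 11 mRNA libraries and of the 27 libraries in the series. The other 4 mRNA libraries, from sham-operated and TAC mice with caPI3Kalpha (a constitutively active form of the phosphoinositide 3-kinase catalytic subunit alpha), entered the model for the spread between hearts alone. Neither the sex of the mice nor the pressure gradient reached is stated in the labels. The source name of WT sham 15 carries the number 13, and its title was followed.

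Levels are RPKM, reads scaled by transcript length and library total, as the authors deposited them. A change is the difference of mean log2(RPKM + 0.5), WT TAC minus WT sham, with its standard error (SE), and it understates the change of genes near 0. A gene is said to rise or fall where limma's test, Benjamini-Hochberg adjusted over all 8987 genes, gave p under 0.05. Values for single hearts are given in the order 1, 17 and 19 for WT TAC and 6, 7, 13 and 15 for WT sham.

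A ventricle under sustained pressure thickens as its muscle cells enlarge. The stressed muscle cells are known to turn on genes of the fetal heart, such as natriuretic peptides and skeletal actin, and to burn less fatty acid. Resident fibroblasts become activated and lay down collagen, and macrophages gather in the tissue.

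Promoters of 5 muscle-cell genes are shown because 4 of them, Nppa, Nppb, Acta1 and Ankrd1, rose together under load while Myh6, the adult alpha-myosin heavy chain gene, fell. Sequences are from RefSeq on GRCm38.p6 and run 5′ to 3′ on the strand of the gene, 250 bases before to 50 after its start. Capitals mark the M-CAT element CATTCC on either strand (GGAATG on the opposite one), which TEAD factors are known to bind in muscle genes, and TATAAA on the gene's strand.
Nppa, chr4:148000472-148000771, plus strand: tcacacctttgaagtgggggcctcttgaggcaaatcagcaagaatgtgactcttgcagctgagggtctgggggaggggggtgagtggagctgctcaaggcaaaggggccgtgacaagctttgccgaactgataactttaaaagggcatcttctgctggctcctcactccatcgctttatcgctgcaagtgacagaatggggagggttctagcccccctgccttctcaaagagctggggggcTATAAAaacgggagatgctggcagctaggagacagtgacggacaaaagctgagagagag
Nppb, chr4:147985650-147985949, plus strand: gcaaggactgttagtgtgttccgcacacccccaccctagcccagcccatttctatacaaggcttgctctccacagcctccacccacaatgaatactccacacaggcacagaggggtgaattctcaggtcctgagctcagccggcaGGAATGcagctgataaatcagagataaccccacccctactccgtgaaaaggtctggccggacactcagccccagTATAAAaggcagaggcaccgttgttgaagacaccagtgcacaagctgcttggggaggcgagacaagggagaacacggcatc
Acta1, chr8:123894726-123895025, minus strand: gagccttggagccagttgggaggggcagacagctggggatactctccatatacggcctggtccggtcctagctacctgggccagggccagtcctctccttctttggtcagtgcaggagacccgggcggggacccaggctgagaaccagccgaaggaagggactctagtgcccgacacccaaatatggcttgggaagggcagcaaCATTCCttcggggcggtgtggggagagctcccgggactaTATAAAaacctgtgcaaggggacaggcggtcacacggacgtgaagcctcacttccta
Ankrd1, chr19:36119795-36120094, minus strand: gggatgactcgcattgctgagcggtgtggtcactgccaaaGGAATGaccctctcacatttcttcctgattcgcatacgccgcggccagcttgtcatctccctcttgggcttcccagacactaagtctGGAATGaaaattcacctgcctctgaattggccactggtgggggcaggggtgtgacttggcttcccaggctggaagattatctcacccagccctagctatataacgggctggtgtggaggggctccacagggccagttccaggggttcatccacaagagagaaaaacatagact
Myh6, chr14:54966558-54966857, minus strand: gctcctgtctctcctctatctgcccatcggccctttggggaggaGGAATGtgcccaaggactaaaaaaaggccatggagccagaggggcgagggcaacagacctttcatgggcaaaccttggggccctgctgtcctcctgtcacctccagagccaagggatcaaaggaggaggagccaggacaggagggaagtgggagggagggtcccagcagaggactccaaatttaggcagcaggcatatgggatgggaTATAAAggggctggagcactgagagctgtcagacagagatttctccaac

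The Ankrd1 window held 2 M-CAT elements, those of Nppb, Acta1 and Myh6 held 1 each, and the Nppa window held 0. TATAAA was present in all of these windows but that of Ankrd1. M-CAT elements occurred in 14.6% of 27025 RefSeq promoters of this length and in 776 of the 6445 that matched a listed gene (12%). Among matched genes they occurred in 106 of 882 that rose (12%) and in 26 of 175 that fell (14.9%). In the list of sarcomere and Z-disc stress genes 7 of 18 matched promoters had one (38.9%). These are matches of letters, and no difference between the shares was tested.

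The WT libraries fell into 2 sets that no label names: WT TAC 1 and WT sham 6 in one, the remaining 5 in the other. Spearman's rho over the listed genes was 0.972 to 0.979 between libraries of the same group and set, 0.931 to 0.941 between the groups within a set, and 0.849 to 0.909 across sets. Both operations are present in both sets, so each result can be read without WT TAC 1 and WT sham 6, in 5 libraries, and in that pair by itself, which has 1 library a group and allows no test. An alternative model of all libraries carried a term for the set, which takes the difference between sets out of the spread. It made 2975 higher and 810 lower calls, more than the model used here. All caPI3Kalpha libraries were placed in the set of WT TAC 1 and WT sham 6. Their groups therefore add no difference between sets to the spread. Fitted to WT libraries alone, the model used here made 744 higher and 146 lower calls. The RPKM of listed genes summed to between 206234.8 and 212396.3 in WT TAC and between 203323.3 and 211058.6 in WT sham, and the depth of the libraries is unknown.

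The tissue label was checked against its markers. Myl2, the ventricular regulatory light chain, was at 2579.6 to 3403.4 RPKM in WT TAC hearts and 3205.1 to 4193.6 RPKM in WT sham hearts. Myl7, its atrial counterpart, was at 0.1, 0.7 and 1.4 RPKM in WT TAC hearts and at 0.0, 0.0, 0.0 and 5.7 RPKM in WT sham hearts. WT sham 15 alone was above 1.4 RPKM for the atrial chain. The load label was checked against Postn, Nppa and Spp1. Postn encodes periostin, a matrix protein of activated fibroblasts, and stood at 142.9, 200.9 and 168.7 RPKM in WT TAC hearts against 11.1, 11.8, 12.1 and 8.4 RPKM in WT sham hearts. Nppa encodes atrial natriuretic peptide and stood at 1219.1, 788.6 and 631.2 RPKM in WT TAC hearts against 117.3, 55.5, 75.0 and 68.9 RPKM in WT sham hearts. Spp1, which encodes osteopontin, a secreted matrix protein, stood at 15.8, 5.9 and 3.9 RPKM in WT TAC hearts against 0.1, 0.0, 0.5 and 0.1 RPKM in WT sham hearts. For all 3 markers the lowest WT TAC heart lay well above the highest WT sham heart. Spp1 reached 3 RPKM, the minimum for being listed, in WT TAC hearts alone. A higher level there follows in part from the listing, so the check rests on Postn and Nppa.

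**Figure D1:**
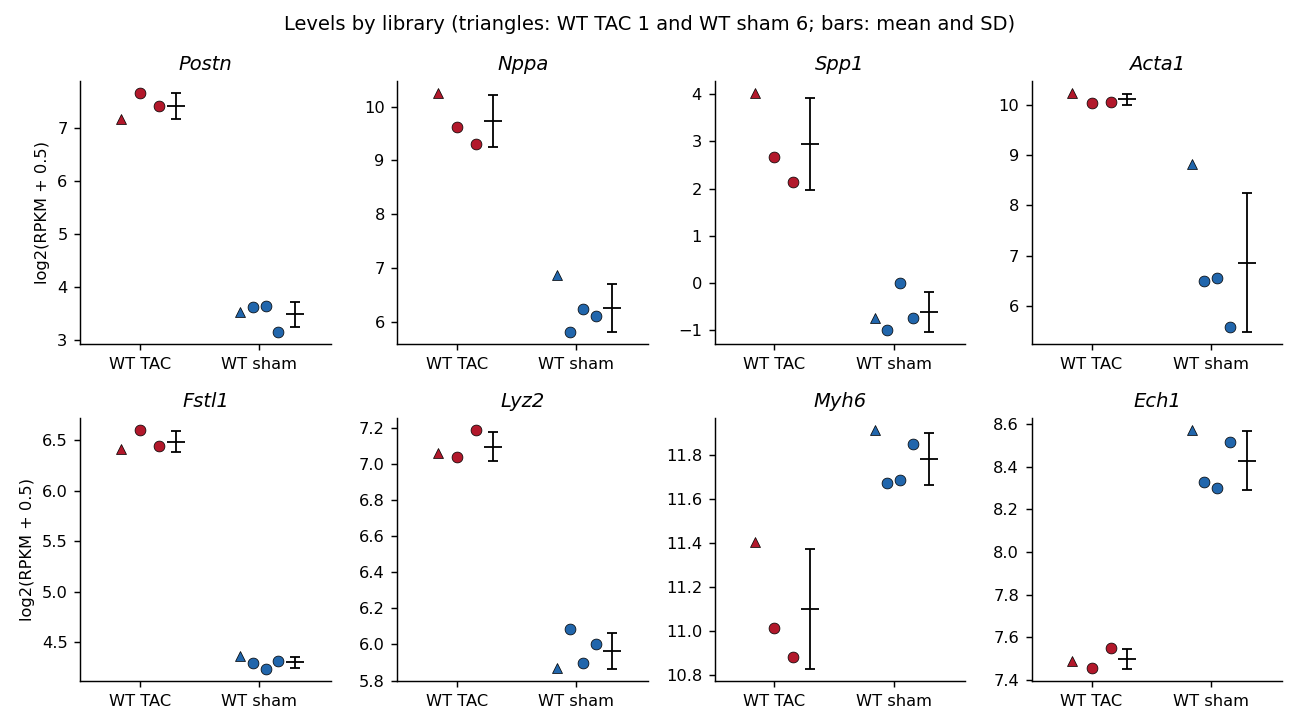
Levels of 8 genes in each heart on the log2(RPKM + 0.5) scale, WT TAC left and WT sham right in each panel, with mean and SD as bars; triangles mark WT TAC 1 and WT sham 6. The groups do not overlap in any panel, and Acta1 shows 1 sham heart, WT sham 6, close to the loaded hearts.

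Of the 8987 genes, 1481 differed between WT TAC and WT sham (16.5%): 1225 rose (13.6%) and 256 fell (2.85%). Of those that rose, 308 changed at least 2-fold and 41 at least 4-fold; of those that fell, 22 changed at least 2-fold and 1 at least 4-fold. Small changes were common, with 357 rises and 130 falls under 1.5-fold. The groups did not overlap for 1701 genes with all WT TAC hearts higher (18.9%) and 418 with all lower (4.65%). The table lists a gene once it reaches 3 RPKM in a library, and 535 genes did so in WT TAC hearts alone. These were listed because a loaded heart was high, and 211 of the 1225 rises are among them.

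The excess of rises went with a change in how reads were shared among genes. The 100 genes most abundant in WT sham took 32.2%, 32.5% and 32.3% of the summed RPKM in WT TAC hearts, against 38.1%, 37.9%, 37.4% and 38% in WT sham hearts. The median change over all genes was 0.17, and it ran from 0.35 for genes with a mean under 3 RPKM, through 0.01 at 30 to 100 RPKM, to -0.27 at 300 RPKM and above. Falls made up 0.477% of genes under 3 RPKM, 17.2% at 100 to 300 RPKM and 26.0% at 300 RPKM and above. Centring the libraries on their medians brought the overall median to -0.02 and lowered every change alike. Rises and falls were then near balance, at 561 and 610, and with quantile normalization they were 486 and 439. All 256 falls passed again after centring and 232 after quantile normalization (90.6%), while 561 of the 1225 rises did after centring (45.8%) and 483 after quantile normalization (39.4%). Rises as small as this shift are to be read against it.

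**Figure D2:**
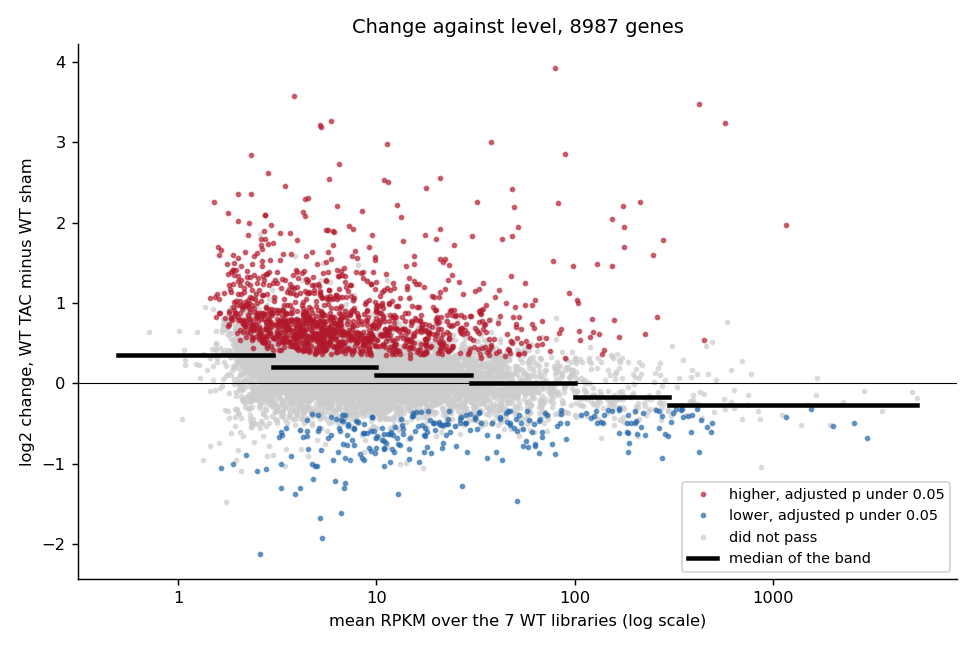
Change of each of 8987 genes (log2, WT TAC minus WT sham) against its mean level over the 7 WT libraries (RPKM, log axis); red genes rose, blue genes fell, grey genes did not pass, and black bars are medians of bands of level. The medians go down with level, from 0.35 under 3 RPKM to -0.27 at 300 RPKM and above.

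The 12 largest rises were Postn, Spp1, Nppa, Timp1, Acta1, Ccl8, Cilp, Col1a1, Mfap4, Col3a1, Tnc and Thbs4, a group made up of matrix genes and a matrix protease inhibitor with a chemokine, a natriuretic peptide and an actin. Postn changed by 3.92 (SE 0.15, adjusted p = 2.75e-07), Nppa by 3.47 (SE 0.30) and Spp1 by 3.57 (SE 0.42). In WT TAC 1 minus WT sham 6 the same genes differed by 3.63, 3.37 and 4.76, and in the remaining 5 libraries by 4.05, 3.41 and 2.99. Spp1, Timp1, Ccl8 and Tnc reached 3 RPKM in WT TAC hearts alone.

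The 12 largest falls were smaller and of another kind. They were Retnla, Pfkfb1, Timp4, Penk, Mylk4, Efnb3, Cyp2b10, Klhl33, Fbp2, Adh1, Ces1d and Car4, among them enzymes of sugar, alcohol, ester and drug metabolism. Retnla, a secreted protein of alternatively activated macrophages, had 0.7, 0.4 and 0.3 RPKM in WT TAC hearts and 1.6, 5.2, 3.6 and 5.6 RPKM in WT sham hearts, a change of -2.13 (SE 0.38). Penk, the precursor of enkephalin peptides, had 4.3, 2.2 and 1.9 RPKM in WT TAC hearts and 7.7, 9.1, 8.6 and 11.7 RPKM in WT sham hearts, a change of -1.62 (SE 0.23). Neither gene overlapped between the groups, and both differed less in the pair of WT TAC 1 and WT sham 6, by -0.81 and -0.77, than in the other 5 libraries, by -2.62 and -2.0. Adh1, an alcohol dehydrogenase, differed by -0.09 in that pair and by -1.76 in the other 5 libraries. Its fall over 7 libraries, -1.30, no longer passed when WT TAC 17 (-1.24), WT TAC 19 (-1.18), WT sham 7 (-1.25), WT sham 13 (-1.13) or WT sham 15 (-1.22) was left out. Efnb3, which encodes the membrane ligand ephrin-B3, had 8.5, 5.3 and 5.6 RPKM in WT TAC hearts and 23.7, 15.2, 15.4 and 15.9 RPKM in WT sham hearts, and here the pair (-1.43) and the other 5 libraries (-1.43) gave the same change.

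Muscle-cell stress genes rose steeply but not as whole families. Of 10 genes of natriuretic peptides, their receptors and their processing enzymes, 9 were listed and 3 rose, with a list median of -0.05 against 0.17 for all genes. Besides Nppa, these were Nppb, which encodes B-type natriuretic peptide, at 390.4, 402.5 and 359.5 RPKM in WT TAC hearts and 121.1, 45.9, 68.0 and 108.2 RPKM in WT sham hearts (2.25, SE 0.39, adjusted p = 0.00363), and Npr3, the clearance receptor. Npr3 changed by 0.54 (SE 0.16) and by 0.35 after centring, where it did not pass, nor did it without WT TAC 17 (0.37), WT TAC 19 (0.57), WT sham 7 (0.56), WT sham 13 (0.46) or WT sham 15 (0.55). Of 21 listed sarcomere and Z-disc stress genes, 9 rose and 1 fell, with a median of 0.52, where 13.6% of all genes rose and 2.85% fell.

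Acta1, skeletal alpha-actin, had 1202.7, 1046.4 and 1063.5 RPKM in WT TAC hearts and 455.2, 89.9, 93.7 and 47.4 RPKM in WT sham hearts. The groups did not overlap, but WT sham 6 stood apart from the other sham hearts. The change was 3.24 (SE 0.56, adjusted p = 0.00361), 1.40 in the pair with WT sham 6 and 3.83 in the other 5 libraries. Reads of near-identical actin genes can be split between copies, so its level is uncertain to that extent. Ankrd1, a titin-associated ankyrin repeat protein that also acts in the nucleus, had 1446.5, 2295.1 and 2294.0 RPKM in WT TAC hearts and 439.1, 378.9, 591.0 and 645.9 RPKM in WT sham hearts (1.97, SE 0.21). Xirp2, an actin-binding protein of the intercalated disc, had 231.6, 393.0 and 331.6 RPKM in WT TAC hearts and 71.8, 64.4, 68.0 and 64.4 RPKM in WT sham hearts (2.21, SE 0.16, adjusted p = 2.83e-05). Fhl1, a LIM-domain protein of the titin stretch-sensing complex, changed by 1.95 (SE 0.24), with 1.06 in the pair and 2.32 in the other 5 libraries. The Z-disc gene Synpo2l changed by 1.79 (SE 0.25). Fhl2, a related LIM protein named after its values were seen as the 1 member that fell, changed by -0.54 (SE 0.12).

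The genes of the mature contractile apparatus summed to 16131.0 to 17664.4 RPKM in WT TAC hearts and 19324.3 to 21686.7 RPKM in WT sham hearts, without overlap. Among 18 adult sarcomere genes 1 rose and 3 fell, where 2.85% of all genes fell, with a median of -0.12. The falls were 8 after centring, 3 with quantile normalization, 8 with a term for the library sets and 6 in the 5 libraries without WT TAC 1 and WT sham 6. In these settings 610, 439, 810 and 601 of all 8987 genes fell. At a mean of 300 RPKM and above 26.0% of genes fell over 7 libraries, and this list was not compared with genes of like level. Myh6 had 2706.6, 2070.2 and 1885.6 RPKM in WT TAC hearts and 3856.4, 3264.8, 3296.0 and 3686.3 RPKM in WT sham hearts, with no overlap (-0.68, SE 0.13, adjusted p = 0.00574). With quantile normalization its change was -0.38 and did not pass. Myh7, the slow beta-myosin heavy chain, had 940.5, 789.3 and 671.2 RPKM in WT TAC hearts and 1040.7, 623.9, 642.7 and 696.1 RPKM in WT sham hearts. These ranges overlapped and the change, 0.11 (SE 0.23), did not pass; the 2 myosin genes are near-identical over long stretches. Mylk4, a myosin light chain kinase family member, had 19.7, 25.6 and 30 RPKM in WT TAC hearts and 50.6, 86.3, 75.5 and 69.8 RPKM in WT sham hearts (-1.47, SE 0.20). Tcap, which caps titin at the Z-disc, changed by -0.85 (SE 0.21), a call that ended without WT TAC 17 (-0.76) or WT TAC 19 (-0.84). Ttn, titin itself, was the 1 member that rose, by 0.49 (SE 0.11). It did not pass after centring (0.30), without WT TAC 17 (0.46) or without WT TAC 19 (0.43).

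Of 17 listed calcium-cycling genes 1 rose and 3 fell, with a median of -0.06, where 13.6% of all genes rose and 2.85% fell. Atp2a2, which pumps calcium back into the sarcoplasmic reticulum, had 1860.7, 2232.9 and 2134.4 RPKM in WT TAC hearts and 2667.0, 2950.5, 2888.5 and 3108.6 RPKM in WT sham hearts, with no overlap. Its change of -0.49 (SE 0.08, adjusted p = 0.00362) shrank to -0.04 with quantile normalization, which sets the highest ranks equal between libraries. Hrc, a calcium-binding protein of the same store, had 235.9, 211.6 and 220.6 RPKM in WT TAC hearts and 350.8, 343.8, 344.5 and 362.9 RPKM in WT sham hearts (-0.65, SE 0.08). Casq1, the skeletal-muscle calsequestrin, went the other way, with 56.4, 81.6 and 81.5 RPKM in WT TAC hearts and 36.2, 20.0, 32.4 and 26.8 RPKM in WT sham hearts (1.34, SE 0.22). The third fall was Cacnb2, a calcium channel subunit (-0.53, SE 0.13), which did not pass without WT TAC 17 (-0.55), WT sham 7 (-0.50), WT sham 13 (-0.48) or WT sham 15 (-0.50). Pln, phospholamban, the inhibitor of the pump, changed by -0.52 (SE 0.21) and did not pass over 7 libraries (adjusted p = 0.107). WT sham 6 and WT TAC 1 were its lowest hearts of each group, at 1560.9 and 1066.5 RPKM, and without WT sham 6 the change was -0.68 and passed, as it did with the term for library sets (-0.47). Among 19 listed potassium channel and conduction genes, Kcnv2, a modifying channel subunit, alone fell (-1.09, SE 0.15). After centring 6 fell, where 610 of all 8987 genes did.

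The extracellular matrix held the densest group of rises, where 13.6% of all genes rose and 2.85% fell. Of 16 fibrillar and associated collagen genes, 11 were listed, 2 of them through WT TAC hearts alone. Of these 11, 10 rose and 0 fell, with a median of 2.31. Their summed RPKM was 734.0, 438.9 and 364.1 in WT TAC hearts and 108.5, 81.3, 75.2 and 73.2 in WT sham hearts. Col1a1 and Col1a2 encode the chains of type I collagen, the main collagen of scar. Col1a1 had 147.4, 48.1 and 35.1 RPKM in WT TAC hearts and 15.5, 6.8, 5.8 and 4.9 RPKM in WT sham hearts (3.00, SE 0.46, adjusted p = 0.00208). WT TAC 1 stood far above the other loaded hearts, and WT sham 6 was the highest sham heart. Col3a1, the type III chain, had 259.0, 147.1 and 127.0 RPKM in WT TAC hearts and 28.3, 24.8, 19.7 and 20.3 RPKM in WT sham hearts (2.85, SE 0.24). Col8a1, a short-chain network collagen, had 31.9, 47.7 and 41.3 RPKM in WT TAC hearts and 5.5, 6.6, 6.8 and 6.4 RPKM in WT sham hearts (2.56, SE 0.14, adjusted p = 2.88e-06). In whole tissue, more cells of a type and more RNA per cell cannot be told apart.

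Of 16 listed basement membrane genes, 1 of them listed through WT TAC hearts alone, 12 rose and 0 fell, with a smaller median of 0.74. Sparc, a collagen-binding matricellular protein, had 443.0, 404.6 and 363.8 RPKM in WT TAC hearts and 114.3, 130.9, 151.1 and 136.8 RPKM in WT sham hearts (1.6, SE 0.12). It is also counted among the matricellular genes below. The laminin chains Lamc1 and Lamb1 changed by 0.72 (SE 0.10) and 0.70 (SE 0.11). Among 21 listed matricellular and adhesive glycoproteins, 15 rose and 0 fell, with a median of 1.32; 4 of the 21 were listed through WT TAC hearts alone. Fn1, fibronectin, had 51.8, 28.5 and 21.5 RPKM in WT TAC hearts and 5.6, 5.1, 6.1 and 5.1 RPKM in WT sham hearts (2.43, SE 0.25). Ctgf, connective tissue growth factor, had 137.9, 198.5 and 114.8 RPKM in WT TAC hearts and 34.6, 23.3, 33.9 and 32.4 RPKM in WT sham hearts (2.24, SE 0.29). Thbs4, thrombospondin-4, had 7.1, 19.2 and 12.5 RPKM in WT TAC hearts and 1.9, 1.4, 1.1 and 1.2 RPKM in WT sham hearts (2.73, SE 0.31). WT TAC 1 was the lowest loaded heart for Thbs4 and for Postn, though the highest for Fn1, Col1a1 and Col3a1.

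Elastic fibre genes rose in 11 of 15 listed cases, with 0 falls and a median of 1.43; 3 of the 15 were listed through WT TAC hearts alone. Mfap4, a microfibril-associated glycoprotein, had 32.9, 19.8 and 16.4 RPKM in WT TAC hearts and 3.3, 2.0, 2.2 and 2.1 RPKM in WT sham hearts (2.98, SE 0.22). Fbn1, the fibrillin of microfibrils, had 26.3, 25.0 and 20.5 RPKM in WT TAC hearts and 5.6, 5.9, 5.0 and 4.7 RPKM in WT sham hearts (2.07, SE 0.16). Small leucine-rich proteoglycans, which space and bind collagen fibrils, rose in 4 of 7 listed cases with a median of 0.96. Bgn, biglycan, had 303.4, 278.3 and 231.5 RPKM in WT TAC hearts and 74.2, 60.9, 65.8 and 58.8 RPKM in WT sham hearts (2.05, SE 0.12). Lum, lumican, changed by 1.52 (SE 0.19) and Prelp by 0.96 (SE 0.13).

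Enzymes that modify and crosslink collagen rose in 17 of 25 listed cases with 0 falls, but the count was 8 after centring and 9 with quantile normalization; 3 of the 25 were listed through WT TAC hearts alone. Loxl2, a lysyl oxidase that crosslinks collagen, had 12.5, 12 and 10.4 RPKM in WT TAC hearts and 2.7, 2.0, 2.3 and 1.6 RPKM in WT sham hearts (2.21, SE 0.15). Pcolce, an enhancer of procollagen cleavage, changed by 1.26 (SE 0.21). Among 17 listed metalloproteinases and inhibitors 9 rose and 1 fell (5 and 1 after centring), and the tissue inhibitors moved in opposite directions. Timp1, listed through WT TAC hearts alone, had 20.5, 10.8 and 6.1 RPKM in WT TAC hearts and 1.5, 0.3, 1.0 and 0.4 RPKM in WT sham hearts (3.26, SE 0.42). Timp4, the inhibitor most typical of heart, had 3.1, 1.9 and 1.1 RPKM in WT TAC hearts and 4.7, 9.1, 7.3 and 8.6 RPKM in WT sham hearts (-1.68, SE 0.27). The enzymes Mmp2, a gelatinase, and Mmp14, a membrane-bound activator, changed by 1.17 (SE 0.16) and 1.89 (SE 0.35). Of 21 listed integrin and focal adhesion genes 10 rose and 1 fell; Cd44, a hyaluronan receptor listed through WT TAC hearts alone, changed by 1.73 (SE 0.17). The fall was Itgb1bp2 (melusin), named after its values were seen (-0.37, SE 0.12), a call that ended without any 1 of the 7 libraries (-0.43 to -0.26).

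**Figure D3:**
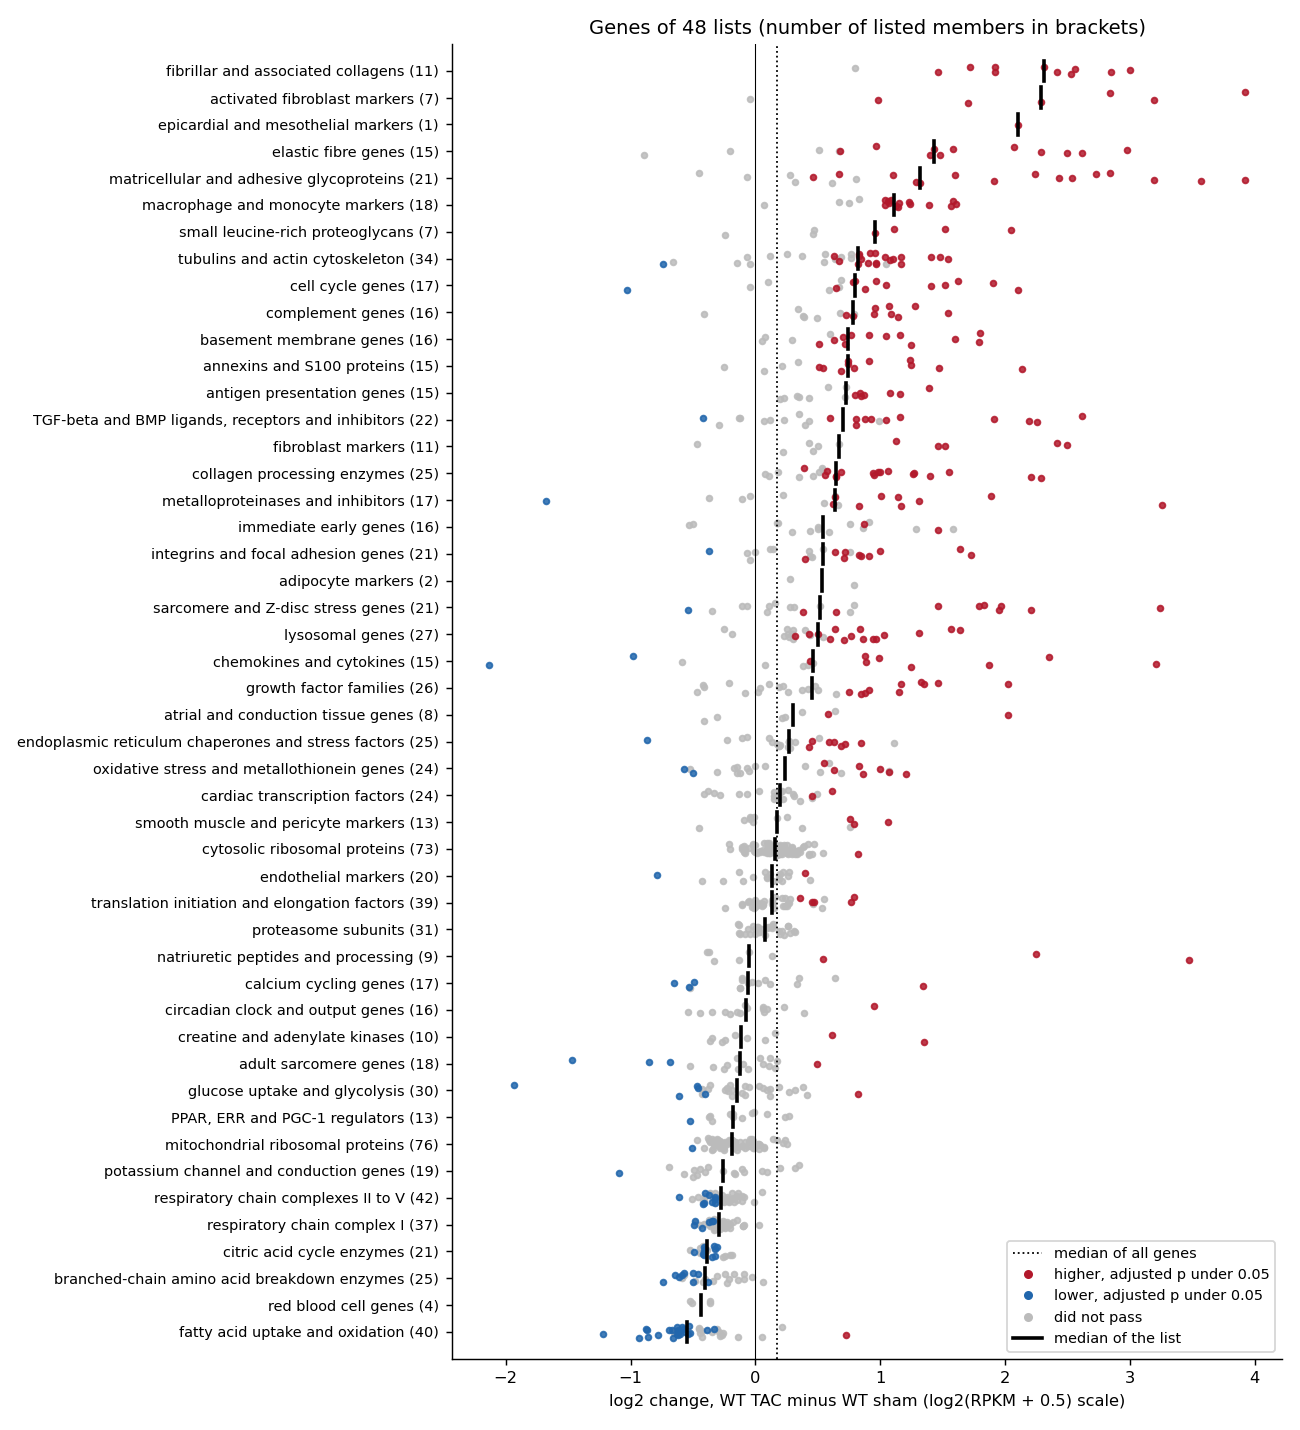
Change of each listed member (log2, WT TAC minus WT sham) in 48 gene lists ordered by median, shown as a black bar, with member numbers in brackets; red rose, blue fell, grey did not pass, and the dotted line is the median of all genes. Fibrillar and associated collagens have the highest median, 2.31, and fatty acid genes the lowest, -0.55.

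Among growth factors, the transforming growth factor beta (TGF-beta) system moved at the ligand and receptor level. Of 22 listed ligands, receptors and inhibitors, 1 listed through WT TAC hearts alone, of the TGF-beta and bone morphogenetic protein families, 11 rose and 1 fell, with a median of 0.70, and 5 rose with quantile normalization. Across all 8987 genes 13.6% rose, and 486 did with quantile normalization. The list shares Ltbp2, which rose, with the elastic fibre genes. Tgfb2, a ligand, had 8.2, 12.8 and 9.3 RPKM in WT TAC hearts and 2.1, 2.2, 2.6 and 2.2 RPKM in WT sham hearts (1.91, SE 0.17). Tgfbr2, the receptor subunit that binds ligand, had 17.4, 15.8 and 15.9 RPKM in WT TAC hearts and 9.2, 9.1, 8.3 and 9.9 RPKM in WT sham hearts (0.81, SE 0.11). Fstl1, a secreted follistatin-like glycoprotein, had 84.6, 96.9 and 86.3 RPKM in WT TAC hearts and 20.1, 19.1, 18.3 and 19.3 RPKM in WT sham hearts (2.19, SE 0.11, adjusted p = 1.66e-06). The 1 fall was Tgfbr3, the coreceptor betaglycan, named after its values were seen (-0.42, SE 0.11), a call that ended without any 1 of WT TAC 17 and 19 and WT sham 7, 13 and 15 (-0.44 to -0.39). Of 26 listed genes of other growth factor systems, 2 of them listed through WT TAC hearts alone, 10 rose and 0 fell. The members with the smallest p were binding proteins and secreted Wnt modulators. Igfbp7, an insulin-like growth factor binding protein, changed by 1.46 (SE 0.20), Igfbp5 by 1.35 (SE 0.19), the Wnt antagonist Frzb by 1.33 (SE 0.17), and Dkk3, of the Dickkopf family, by 2.02 (SE 0.24). Dkk3 was listed through WT TAC hearts alone.

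Cell-type markers moved to different degrees, where 13.6% of all genes rose and 2.85% fell. Some also belong to the matrix lists above: Postn, Cilp and Lox among activated fibroblast markers, and Mfap5 and Lum among general fibroblast markers. To that extent the marker and matrix lists are the same genes. Activated fibroblast markers were listed for 7 of 11, for 2 of them through WT TAC hearts alone, and 6 rose. Their summed RPKM was 256.0, 292.2 and 239.2 in WT TAC hearts and 65.5, 70.6, 58.9 and 67.3 in WT sham hearts. Postn alone accounted for 142.9, 200.9 and 168.7 RPKM of WT TAC sums and 11.1, 11.8, 12.1 and 8.4 RPKM of WT sham sums. Most of each WT sham sum was Acta2, which did not pass. Besides Postn, they include Cilp, a matrix protein, with 8.9, 14.5 and 9.8 RPKM in WT TAC hearts and 1.2, 0.9, 0.6 and 0.4 RPKM in WT sham hearts (3.19, SE 0.27). Meox1, a homeobox transcription factor, had 13.9, 16 and 15.9 RPKM in WT TAC hearts and 4.5, 4.9, 4.2 and 3.8 RPKM in WT sham hearts (1.70, SE 0.16). The exception was Acta2, smooth-muscle alpha-actin, which had 66.5, 41.5 and 30.5 RPKM in WT TAC hearts and 44.8, 48.4, 38.1 and 50.3 RPKM in WT sham hearts (-0.04, SE 0.28, not passing). It differed by 0.56 in the pair of WT TAC 1 and WT sham 6 and by -0.34 in the other 5 libraries. General fibroblast markers rose in 5 of 11 cases with a median of 0.67 and summed to 816.4 to 900.8 RPKM in WT TAC hearts and 575.9 to 659.1 RPKM in WT sham hearts. The share of the matrix changes that goes with fibroblast number was not tested.

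Macrophage and monocyte markers were listed for 18 of 23, 3 of them through WT TAC hearts alone, and 14 rose with 0 falls and a median of 1.11. Their sum was 386.0, 330.2 and 345.7 RPKM in WT TAC hearts and 167.3, 158.4, 151.3 and 159.8 RPKM in WT sham hearts. Lyz2, lysozyme, had 133.1, 130.8 and 145.5 RPKM in WT TAC hearts and 58.0, 67.5, 59.1 and 63.5 RPKM in WT sham hearts (1.13, SE 0.16, adjusted p = 0.00149). Csf1r, the receptor that keeps macrophages alive, had 15.1, 12.8 and 11.2 RPKM in WT TAC hearts and 5.6, 6.5, 5.9 and 6.2 RPKM in WT sham hearts (1.04, SE 0.16). Of 12 neutrophil and mast cell markers and 14 T, B and NK cell markers, 0 were among the listed genes, so none is known here to reach 3 RPKM.

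Endothelial markers, all 20 listed, had a median of 0.13, with 1 rise and 1 fall, and summed to 1150.9 to 1436.9 RPKM in WT TAC hearts and 1153.9 to 1564.1 RPKM in WT sham hearts. Over all genes 13.6% rose and 2.85% fell. Aqp1, a water channel of capillaries, had 46.3, 38.7 and 37.6 RPKM in WT TAC hearts and 58.3, 72.7, 76.4 and 77.8 RPKM in WT sham hearts (-0.79, SE 0.15). Pecam1, a junction protein, changed by 0.40 (SE 0.10), which did not pass after centring (0.21), without WT TAC 17 (0.38) or without WT TAC 19 (0.38). Of 13 listed smooth muscle and pericyte markers, which summed to 765.0 to 1286.2 RPKM in WT TAC hearts and 577.5 to 911.5 RPKM in WT sham hearts, 3 rose, Mcam by 1.06 (SE 0.14), Tagln by 0.79 and Cspg4 by 0.76. Most of each sum was the desmin gene Des, which did not pass. It had 1008.6, 717.0 and 565.8 RPKM in WT TAC hearts and 705.5, 368.7, 369.0 and 388.6 RPKM in WT sham hearts. The groups overlapped for Tagln and Cspg4, and both calls ended after centring (0.60 and 0.57) and without any 1 of WT TAC 1 and 17 and WT sham 7, 13 and 15 (0.60 to 0.78 for Tagln and 0.50 to 0.80 for Cspg4). Red blood cell genes, 4 of 10 listed, summed to 19.4 to 200.5 RPKM in WT TAC hearts and 15.8 to 216.9 RPKM in WT sham hearts. Hba-a1, an alpha-globin gene with a near-identical copy, had 82.8, 12.7 and 6.7 RPKM in WT TAC hearts and 82.6, 14.6, 80.2 and 6.0 RPKM in WT sham hearts. Of 8 listed atrial and conduction genes, which summed to 192.3 to 246.9 RPKM in WT TAC hearts and 133.1 to 156.2 RPKM in WT sham hearts, 2 rose: Dkk3 and Pam, a peptide-amidating enzyme (0.58, SE 0.13). Most of each sum was Pam, with 179.5, 233.1 and 209.4 RPKM in WT TAC hearts and 122.4, 147.7, 146.5 and 134.6 RPKM in WT sham hearts. The call of Pam ended after centring (0.39) and without WT TAC 17 (0.50). The 2 listed adipocyte markers of 8 summed to 4.0 to 9.5 RPKM in WT TAC hearts and 2.1 to 5.7 RPKM in WT sham hearts, and in limma's test 0 passed, 0 also at an unadjusted p under 0.05, as for the red blood cell genes. Aldh1a2, a retinoic acid-making enzyme, listed through WT TAC hearts alone and the 1 listed epicardial marker of 8, had 5.4, 5.3 and 4.5 RPKM in WT TAC hearts and 1.1, 1.0, 0.4 and 0.8 RPKM in WT sham hearts (2.10, SE 0.22). How far these cell types contribute to other changes was not tested.

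**Figure D4:**
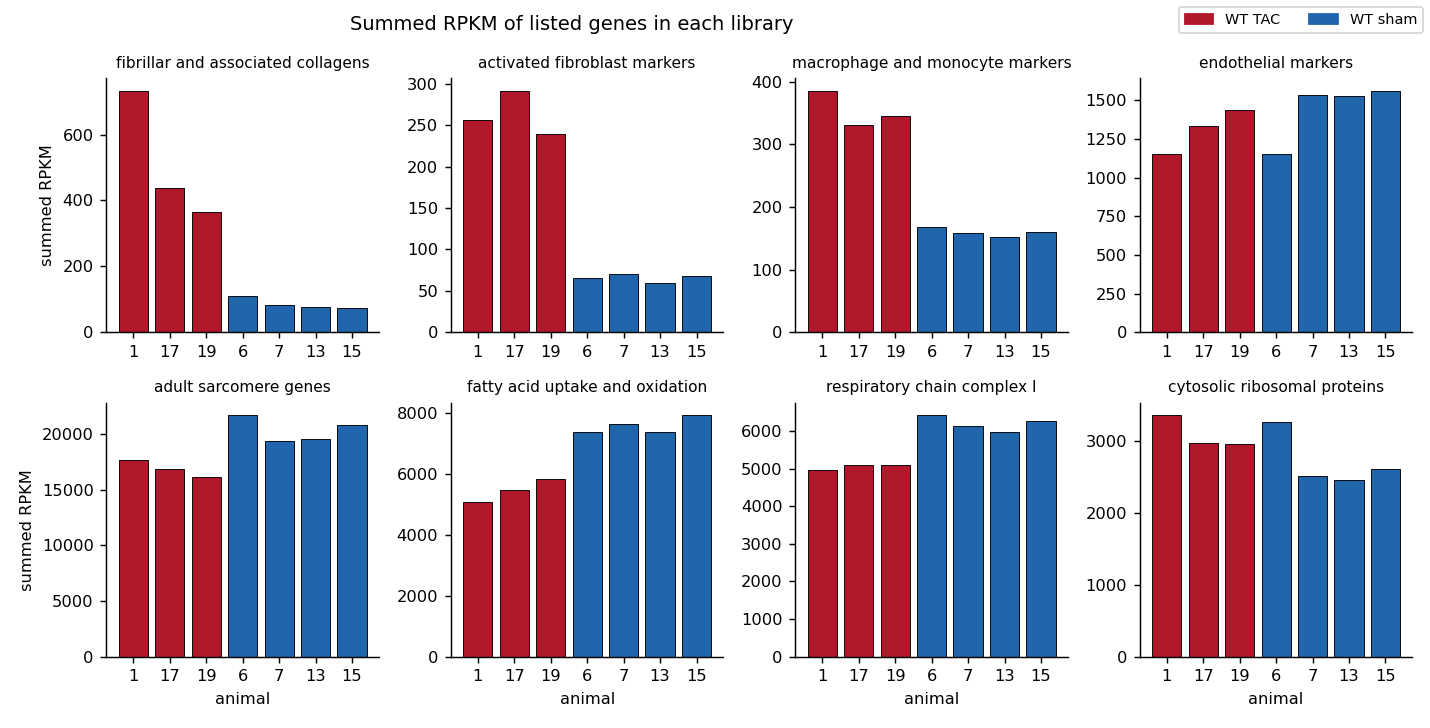
Summed RPKM of the listed members of 8 gene lists in each heart, WT TAC in red and WT sham in blue. Collagen, activated fibroblast and macrophage sums are higher in all WT TAC hearts, fatty acid and complex I sums are lower in all, and endothelial and ribosomal sums overlap between the groups.

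Complement, chemokine and antigen presentation genes rose alongside the macrophage markers, with which the complement list shares C1qa, C1qb and C1qc. Across all 8987 genes, 13.6% rose and 2.85% fell over 7 libraries, with 561 rises after centring and 486 with quantile normalization. Of 16 listed complement genes, 4 of them listed through WT TAC hearts alone, 9 rose (5 after centring and 5 with quantile normalization), for example C1qb, a chain of the initiating complex, by 1.14 (SE 0.20), and Masp1, a protease of the lectin pathway, by 1.28 (SE 0.19). Of 39 chemokine and cytokine genes only 15 were listed, 5 of them through WT TAC hearts alone; 8 rose (5 with quantile normalization) and 2 fell. Ccl8, a monocyte chemoattractant, had 8.4, 13.3 and 11.0 RPKM in WT TAC hearts and 0.6, 0.6, 1.0 and 0.7 RPKM in WT sham hearts (3.21, SE 0.20, adjusted p = 6.94e-06). Ccl12, another monocyte chemoattractant, had 2.7, 4.5 and 6.4 RPKM in WT TAC hearts and 0.8, 0.0, 0.3 and 1.0 RPKM in WT sham hearts (2.35, SE 0.38). Both Ccl8 and Ccl12 were listed through WT TAC hearts alone. The falls were Retnla and Il15, a lymphocyte cytokine named after its values were seen (-0.98, SE 0.24), a call that ended without WT TAC 17 (-1.01), WT sham 7 (-0.93) or WT sham 15 (-0.85). Of 15 listed antigen presentation genes 7 rose (3 after centring and 3 with quantile normalization), among them the class II chains H2-Ab1 (1.39, SE 0.27) and H2-Aa (1.08, SE 0.20), which belong to a family of near-identical genes.

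Lysosomal and cytoskeletal genes also rose. Lysosomal genes did so in 15 of 27 listed cases (median 0.50), where 13.6% of all genes did. With the term for library sets 23 did, where 2975 of all 8987 genes rose. The list was led by the cathepsins Ctsk (1.64, SE 0.19) and Ctss (1.57, SE 0.15). Ctss is also counted among the macrophage and monocyte markers. Annexins and S100 proteins, which bind calcium and membranes, rose in 11 of 15 cases, but in 7 after centring and in 7 with quantile normalization. S100a4 had 14.2, 18.4 and 13.7 RPKM in WT TAC hearts and 3.1, 4.0, 2.9 and 2.5 RPKM in WT sham hearts (2.14, SE 0.22). Of 34 listed tubulin and actin cytoskeleton genes 19 rose and 1 fell. Vim, the intermediate filament vimentin of mesenchymal cells, had 221.9, 187.3 and 203.1 RPKM in WT TAC hearts and 84.1, 66.8, 68.6 and 71.7 RPKM in WT sham hearts (1.48, SE 0.11). The fall was Tuba4a, an alpha-tubulin named after its values were seen (-0.74, SE 0.19), a call that ended without WT TAC 17 (-0.70), WT TAC 19 (-0.59) or WT sham 7 (-0.68). Lcp1, an actin-bundling protein of leukocytes, changed by 1.54 (SE 0.16).

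Cell cycle genes were scarce in the ventricle: 17 of 35 were listed, 8 of them through WT TAC hearts alone, and 11 rose (7 with quantile normalization) and 1 fell. Across all 8987 genes 13.6% rose, and 486 did with quantile normalization. Ccnd1, cyclin D1, had 20.0, 17.5 and 19.6 RPKM in WT TAC hearts and 9.9, 9.8, 10.6 and 10.0 RPKM in WT sham hearts (0.88, SE 0.11, adjusted p = 0.000796). Ccna2, cyclin A2, had 5.3, 2.6 and 4.9 RPKM in WT TAC hearts and 1.3, 0.9, 0.9 and 0.9 RPKM in WT sham hearts (1.62, SE 0.24). Ccna2 was listed through WT TAC hearts alone. Cdkn1c, an inhibitor of cyclin-dependent kinases, went down, with 3.3, 2.8 and 2.3 RPKM in WT TAC hearts and 5.1, 5.6, 7.0 and 7.4 RPKM in WT sham hearts (-1.03, SE 0.16). Cdkn1a, a related inhibitor, had 15.0, 6.7 and 5.2 RPKM in WT TAC hearts and 8.6, 6.8, 2.4 and 3.7 RPKM in WT sham hearts, and did not pass (0.69, SE 0.57). Which cells of the ventricle carry these transcripts cannot be told from whole tissue.

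Among genes of the protein-making and protein-degrading machinery, ribosomal proteins and proteasome subunits gave few calls over 7 libraries. For comparison, 13.6% of all genes rose over 7 libraries, and 24.9% in the 5 libraries without WT TAC 1 and WT sham 6. The all-gene count was 561 of 8987 after centring, 486 with quantile normalization and 2975 with the term for library sets. Of 73 cytosolic ribosomal protein genes 1 rose, Rpl3 (0.82, SE 0.22), with a list median of 0.16, next to 0.17 for all genes. The call of Rpl3 ended after centring (0.63) and without WT TAC 17 (0.68), WT TAC 19 (0.67), WT sham 7 (0.86) or WT sham 15 (0.84). Against the all-gene counts above, 16 of the 73 rose with a term for the library sets and 21 in the 5 libraries. Their sum was 3362.8, 2974.8 and 2967.5 RPKM in WT TAC hearts and 3263.3, 2516.8, 2465.3 and 2616.1 RPKM in WT sham hearts, and both libraries of the first set, WT TAC 1 and WT sham 6, were the highest of their group. Of 39 translation factors 5 rose (1 after centring, 2 with quantile normalization, 15 with the term for library sets and 11 in the 5 libraries), and Eef1a1, the elongation factor that delivers transfer RNA, had 175.0, 227.8 and 218.6 RPKM in WT TAC hearts and 97.5, 137.1, 124.1 and 121.3 RPKM in WT sham hearts (0.79, SE 0.13). The others were Eif1a (0.77), Eif3h (0.47), Eif3a (0.45) and, named after its values were seen, Eif4b (0.36). With WT TAC 17 left out these 4 calls ended (0.67, 0.42, 0.40 and 0.32), those of Eif1a and Eif3a also without WT TAC 19 (0.61 and 0.39) or WT sham 7 (0.82 and 0.48), and that of Eif3a without WT sham 13 (0.48) or 15 (0.47). That of Eif4b ended too without WT TAC 19 (0.38) or WT sham 7, 13 or 15 (0.34, 0.35 and 0.39). Of 31 proteasome subunits 0 passed limma's adjusted threshold and 4 had an unadjusted p under 0.05, with changes between -0.14 and 0.32 and a median of 0.08; 6 rose with the term for library sets and 3 in the 5 libraries. Endoplasmic reticulum chaperones and stress factors rose in 7 of 25 listed cases (4 after centring, 3 with quantile normalization and 12 with the term for library sets), for example P4hb, protein disulfide isomerase (0.69, SE 0.10), while Herpud1, a factor in degrading misfolded proteins, had 50, 41.4 and 42.1 RPKM in WT TAC hearts and 74.8, 74.4, 94.2 and 83.6 RPKM in WT sham hearts (-0.87, SE 0.16). P4hb is also counted among the collagen enzymes above.

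Fatty acid genes carried the largest group of falls. In a list of 40 genes for fatty acid uptake and oxidation, 23 fell and 1 rose, where 2.85% of all genes fell. At a mean of 100 to 300 RPKM 17.2% of genes fell. The list median was -0.55. The list also holds genes of neither step, such as Dgat2 and Ucp2. The falls were 20 with quantile normalization and 35 with the term for library sets, where 439 and 810 of all 8987 genes fell. The 40 genes summed to 5106.0, 5493.1 and 5852.7 RPKM in WT TAC hearts and 7407.5, 7656.5, 7398.2 and 7945.2 RPKM in WT sham hearts. Ech1, an enoyl-CoA isomerase of beta-oxidation, had 179.0, 175.1 and 186.9 RPKM in WT TAC hearts and 380.7, 320.7, 314.3 and 366.2 RPKM in WT sham hearts (-0.93, SE 0.10, adjusted p = 0.00026). Acaa2, the thiolase that ends each cycle, had 120.8, 127.3 and 133.0 RPKM in WT TAC hearts and 233.3, 230.0, 211.3 and 250.3 RPKM in WT sham hearts (-0.86, SE 0.10). Hadha, a subunit of the trifunctional protein, had 133.2, 140.2 and 151.5 RPKM in WT TAC hearts and 207.9, 212.3, 209.1 and 233.4 RPKM in WT sham hearts (-0.61, SE 0.09). In all 3 the groups were far apart and the hearts within each group close together. Ucp3, a mitochondrial carrier, changed by -1.22 (SE 0.21) and Dgat2, which makes triglyceride, by -0.78 (SE 0.13). Ucp2, the 1 rise and named after its values were seen, changed by 0.73 (SE 0.22). Its call ended after centring (0.54) and without any 1 of WT TAC 1, 17 and 19 and WT sham 7, 13 and 15 (0.48 to 0.86). Pdk4, which restrains pyruvate oxidation, changed by -0.88 (SE 0.27, adjusted p = 0.047) with a wide spread in WT sham, 63.9 to 140.2 RPKM. It did not pass without WT TAC 1 (-0.91), WT TAC 17 (-0.86), WT TAC 19 (-0.88), WT sham 7 (-0.70), WT sham 13 (-1.0) or WT sham 15 (-0.76).

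The rest of oxidative metabolism shifted down by less. For comparison, 256 of all 8987 genes fell over 7 libraries (2.85%), 610 after centring and 439 with quantile normalization. The all-gene falls were 810 with the term for library sets and 601 in the 5 libraries. Over 7 libraries 17.2% of genes with a mean of 100 to 300 RPKM fell, and 26.0% at 300 RPKM and above. The lists below were not compared with genes of like level. Of 21 citric acid cycle enzymes 11 fell and 0 rose, 18 after centring, 4 with quantile normalization and 19 with the term for library sets, and all 21 were lower in WT TAC 1 than in WT sham 6. Suclg1, a subunit of succinyl-CoA ligase, had 100.1, 108.0 and 108.0 RPKM in WT TAC hearts and 136.0, 142.0, 136.0 and 147.0 RPKM in WT sham hearts (-0.41, SE 0.09). Of 25 enzymes that break down branched-chain amino acids 9 fell and 0 rose, 18 after centring and 17 with the term for library sets. Ivd, isovaleryl-CoA dehydrogenase, had 48.1, 47.8 and 44.0 RPKM in WT TAC hearts and 74.0, 67.0, 71.0 and 74.2 RPKM in WT sham hearts (-0.61, SE 0.10). Of 37 subunits of respiratory complex I 6 fell (18 after centring) and of 42 subunits of complexes II to V 9 fell (21 after centring and 3 with quantile normalization), with 0 rises and medians of -0.29 and -0.27. With the term for library sets 30 and 33 fell, and in the 5 libraries 24 and 26. The list of complexes II to V shares Sdha and Sdhb, which both fell, with the citric acid cycle enzymes. Ndufb10, a complex I subunit, had 247.5, 240.5 and 257.4 RPKM in WT TAC hearts and 342.6, 354.3, 334.1 and 355.3 RPKM in WT sham hearts (-0.48, SE 0.08). Cox7a1, the muscle form of a cytochrome oxidase subunit, had 399.0, 343.7 and 381.1 RPKM in WT TAC hearts and 611.8, 527.9, 526.0 and 620.7 RPKM in WT sham hearts (-0.61, SE 0.11). Of 76 mitochondrial ribosomal proteins 1 fell, Mrps35 (-0.51, SE 0.10), with 19 falls after centring, 10 with quantile normalization and 27 with the term for library sets.

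Of 30 listed genes of glucose uptake and glycolysis 1 rose and 5 fell, where 2.85% of all genes fell, with a median of -0.15. The falls were 9 after centring, 4 with quantile normalization, 13 with a term for the library sets and 9 in the 5 libraries. In these settings 610, 439, 810 and 601 of all 8987 genes fell. The list summed to 3330.0 to 3794.5 RPKM in WT TAC hearts and 3857.5 to 4465.5 RPKM in WT sham hearts, without overlap. The rise was Pfkp, the platelet-type phosphofructokinase, with 16.5, 17.2 and 14.2 RPKM in WT TAC hearts and 10.7, 9.0, 8.7 and 7.2 RPKM in WT sham hearts (0.82, SE 0.15). Among the falls were Pfkfb1, which sets the level of a phosphofructokinase activator, with 1.9, 2.4 and 0.9 RPKM in WT TAC hearts and 5.7, 10.3, 6.5 and 8.8 RPKM in WT sham hearts (-1.93, SE 0.28), and Eno3, the muscle enolase, with 321.2, 285.4 and 280.5 RPKM in WT TAC hearts and 446.9, 452.9, 430.6 and 475.5 RPKM in WT sham hearts (-0.61, SE 0.08). The others were Ldhb (-0.46), a call that ended without WT sham 7 (-0.42), and, named after their values were seen, Pygm (-0.47) and Pfkm (-0.40). Both calls ended with quantile normalization (-0.42 each) and with WT libraries alone. The call of Pygm also ended without WT TAC 17 (-0.42) or WT TAC 19 (-0.40), and that of Pfkm without any 1 of WT TAC 17 and 19 and WT sham 7, 13 and 15 (-0.45 to -0.31). The glucose transporters Slc2a1 (0.32, SE 0.17) and Slc2a4 (-0.36, SE 0.17) did not pass. Slc2a4 passed with the term for library sets (-0.40, adjusted p = 0.00146) and in the 5 libraries (-0.31, adjusted p = 0.0102), and WT sham 6 stood above the other sham hearts for it, at 106.4 RPKM. Among 13 listed nuclear receptors and coactivators that control oxidative genes, Rxrg, a retinoid X receptor, alone fell (-0.52, SE 0.11), with 4 falls after centring and 4 with quantile normalization. Ppara had 8.5, 9.0 and 10.1 RPKM in WT TAC hearts and 15.0, 11.7, 10.7 and 10.8 RPKM in WT sham hearts, and did not pass (-0.36, SE 0.13, adjusted p = 0.0888). Ppargc1a had 14.9, 13.5 and 14.1 RPKM in WT TAC hearts and 15.0, 20.5, 18.6 and 19.3 RPKM in WT sham hearts, and did not pass (-0.35, SE 0.13, adjusted p = 0.0838). For both genes every WT TAC heart lay below every WT sham heart, and both passed after centring (-0.55 and -0.54) and with quantile normalization (-0.53 and -0.49). Ppara differed by -0.78 in the pair and -0.20 in the other 5 libraries, and Ppargc1a by -0.01 and -0.48. With the term for library sets both passed (-0.37 and -0.34). Gatm, which makes the precursor of creatine, rose against the metabolic lists, with 4.3, 6.5 and 6.8 RPKM in WT TAC hearts and 1.2, 2.0, 1.9 and 3.1 RPKM in WT sham hearts (1.35, SE 0.24). Among 10 listed genes of creatine and adenylate kinases, the other rise was the creatine transporter Slc6a8 (0.61, SE 0.14), a call that ended after centring (0.42) and without WT TAC 17 (0.60).

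Stress-response and regulatory genes gave scattered calls. Across all 8987 genes, 13.6% rose and 2.85% fell over 7 libraries, with 561 rises after centring and 486 with quantile normalization. Of 24 listed oxidative stress and metallothionein genes 7 rose (4 after centring and 3 with quantile normalization) and 2 fell. Hmox1, heme oxygenase-1, had 7.7, 7.5 and 7.7 RPKM in WT TAC hearts and 3.4, 3.6, 3.2 and 2.1 RPKM in WT sham hearts (1.21, SE 0.22). Sod2, the mitochondrial superoxide dismutase, had 63.4, 71.8 and 67.7 RPKM in WT TAC hearts and 92.0, 102.9, 91.2 and 97.3 RPKM in WT sham hearts (-0.50, SE 0.10). A cytosolic glutathione transferase, Gstm1, was the other fall (-0.57, SE 0.11). Of 16 listed clock and clock-output genes Bhlhe40, a transcriptional repressor, alone rose (0.95, SE 0.15), with 21.6, 24.3 and 22.2 RPKM in WT TAC hearts and 13.7, 8.7, 13.4 and 10.8 RPKM in WT sham hearts. Of 24 listed cardiac transcription factors 2 rose, Tbx20 (0.61) and Stat3 (0.45), and 0 did after centring. Both calls also ended without any 1 of WT TAC 17 and 19 and WT sham 7 and 15 (0.49 to 0.63 for Tbx20 and 0.39 to 0.48 for Stat3), that of Stat3 also without WT sham 13 (0.45).

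The comparison was repeated without WT TAC 1 and WT sham 6, and the genes it called were then looked up in that pair, which shares no library with it. In WT TAC 17 and 19 against WT sham 7, 13 and 15, 2836 genes differed (31.6%), 2235 higher (24.9%) and 601 lower (6.69%). Here too the excess of rises depended on scaling, with 971 higher and 1221 lower after centring on library medians, and 1011 higher and 1062 lower with quantile normalization. Of the 2235 higher genes 2114 were also higher in WT TAC 1 than in WT sham 6 (94.6%), where 65.6% of all genes were higher, and 1950 were above the median difference of the pair (87.2%). Of the 601 lower genes 564 were also lower in WT TAC 1 (93.8%), where 31.8% of all genes were lower. The higher genes had a median of 0.47 in the pair and 0.60 in the 5 libraries, and the lower ones -0.40 and -0.46; since they were chosen in the 5 libraries, no difference in size is read from these medians. Of 344 genes at least 2-fold higher in the 5 libraries, 338 had the same direction in the pair and 222 were again at least 2-fold higher (64.5%). Of 51 genes at least 2-fold lower, 46 had the same direction and 9 were again at least 2-fold lower (17.6%), a share that the choice in the 5 libraries also bears on. The 5-library count was 1224 without WT TAC 17, 1476 without WT TAC 19 and 1577 without WT sham 7.

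**Figure D5:**
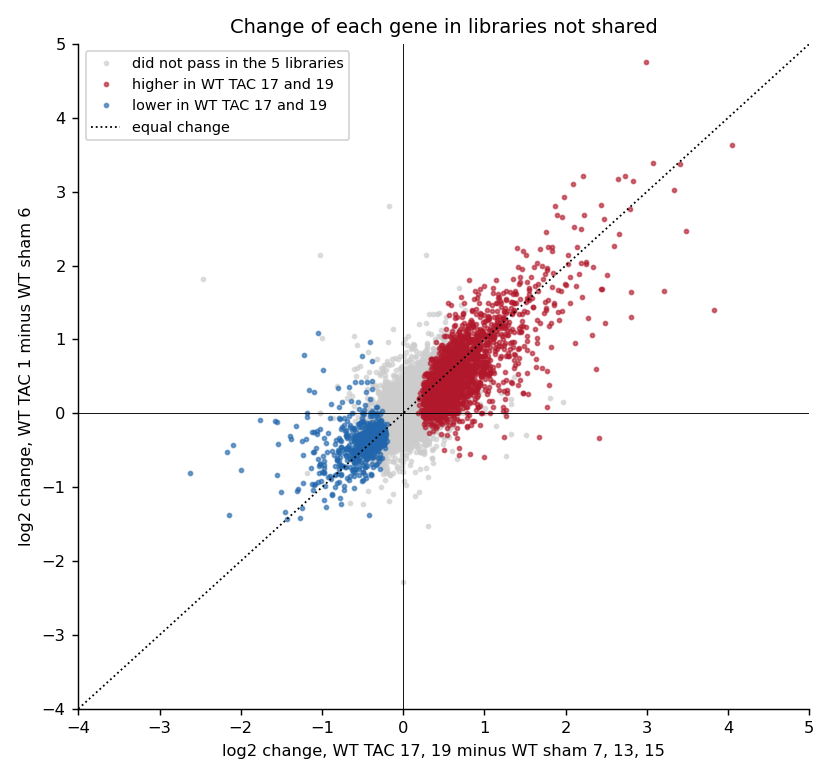
Change of each gene in WT TAC 1 minus WT sham 6 (vertical, log2) against its change in WT TAC 17 and 19 minus WT sham 7, 13 and 15 (horizontal, log2); red and blue genes passed in the 5 libraries. Of the red genes 94.6% lie above 0 on the vertical axis and of the blue genes 93.8% lie below 0.

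Gene groups differed in how alike the pair and the 5 libraries were. The collagens had a median of 2.43 in the pair and 2.19 in the 5 libraries, the macrophage markers 1.19 and 1.05, the fatty acid genes -0.56 and -0.53, and the complex I subunits -0.37 and -0.27, with all 11 collagens higher and all 37 complex I subunits lower in WT TAC 1 than in WT sham 6. Of all genes, 24.9% rose in the 5 libraries and 13.6% over all 7. Sarcomere and Z-disc stress genes had 0.24 in the pair and 0.59 in the 5 libraries, in which 14 of 21 rose. Immediate early genes had 0.26 and 0.60, with 10 of 16 rising in the 5 libraries and 2 over all 7, Atf3 (1.46, SE 0.43) and Btg2 (0.87, SE 0.23), neither of them after centring. The call of Atf3 ended without any 1 of the 3 WT TAC libraries and of WT sham 7, 13 and 15 (1.21 to 1.67), and that of Btg2 without WT TAC 17 or WT sham 7, 13 or 15 (0.75 to 0.88). Junb, a stress-induced transcription factor, had 10.5, 4.4 and 3.5 RPKM in WT TAC hearts and 5.2, 1.1, 0.6 and 1.1 RPKM in WT sham hearts. WT sham 6 lay above WT TAC 17 and 19 for this gene, the change of 1.58 (SE 0.50) did not pass, and without WT sham 6 it was 2.09 and passed, as it did with the term for library sets (1.44).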

How the data were processed

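Polyadenylated RNA of single left ventricles was sequenced as single-end reads, per the labels' protocols. The submitters' processing notes name CASAVA 1.6, Bowtie, Partek 6.5 and the mouse build mm9, without roles; how reads were mapped and counted is not given in the sources used. The authors deposited 1 table of RPKM values for the mRNA libraries, with no counts, so the depth of each library is unknown and no counting interval is given. The table held 9251 lines. Of these, 261 had no gene name, 1 held a spreadsheet error in place of a name and 2 repeated a name, which left 8987 genes; each reached 3 RPKM in at least 1 of the 11 libraries. Requiring a mean of at least 1 RPKM removed 0 genes. 0 sample columns went unmatched.

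log2(RPKM + 0.5) values were fitted in limma 3.58.1 (R 4.3.3; lmFit, eBayes with trend) in 1 model of the 4 mRNA groups, and the contrast WT TAC minus WT sham was tested, two-sided, with Benjamini-Hochberg adjustment and a threshold of 0.05. Each library came from 1 mouse, and this model had no term for the library sets. Its spread therefore holds differences between animals together with, in the WT groups, differences between sets. The caPI3Kalpha groups were of a single set. The procedure was also run on simulated data that held no library sets and no shift in scaling. That run therefore does not bear on either. Named genes are the genes past the threshold, without overlap of the groups, that rose most (12) or fell most (12), the 4 or fewer members of a list with the smallest p, and a small set of known load genes; others are named as chosen after their values were seen. The members, lists and tests were chosen with earlier results of these data known. Alternatives were other pseudocounts (0.1 and 1), a filter at 3 RPKM, no filter, quantile normalization, centring on library medians, WT libraries alone, a term for the library sets, robust eBayes, leaving out libraries, and leaving out genes listed through WT TAC alone. No genome of the build used by the authors was used here, so genes have no coordinates on it; promoters were matched by symbol to RefSeq on GRCm38.p6, for 6445 of the 8987 genes.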

Additional observations from a re-analysis of the deposited data

Results flagged for a closer look

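Among the 200 named genes, 1 sham heart stood apart from the other 3 in 19 cases by a test of its gap over the group's range, which chance passes in about 1 of 20 groups. WT sham 6 was that heart in 18 cases. It was high for Acta1, at 455.2 RPKM against 47.4 to 93.7 in the other sham hearts, and for the desmin gene Des, at 705.5 RPKM, Slc2a4 at 106.4 RPKM, Junb at 5.2 RPKM and the calcium channel gene Cacna1g at 3.0 RPKM. Matrix and secreted-protein genes were also high in it, with Igfbp7 at 72.7 RPKM, Col1a2 at 20.1 RPKM, the fibroblast marker Pi16 at 13.9 RPKM and Mfap4 at 3.3 RPKM, as were Efnb3 at 23.7 RPKM and Ccna2 at 1.3 RPKM. It was low for Myl2, at 3205.1 RPKM against 4093.6 to 4193.6, and for Pln at 1560.9 RPKM, Eif3a at 28.2 RPKM, Tbx20 at 15.5 RPKM, Cacnb2 at 14.8 RPKM, the matrix proteoglycan Aspn at 10.8 RPKM and Eif1a at 4.0 RPKM. WT sham 6 is the sham heart of the set shared with WT TAC 1. In the remaining case WT sham 15 had 5.7 RPKM of the atrial gene Myl7, which was listed at 0 in the other 3 sham hearts.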

How the results depend on the processing

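Of 1481 calls, 1225 higher and 256 lower, the count fell to 890 (744 and 146) with WT libraries alone and to 925 (486 and 439) with quantile normalization; with centring on library medians it was 561 higher and 610 lower. It rose to 2836 (2235 and 601) without WT sham 6 and WT TAC 1, to 3785 (2975 and 810) with a term for the library sets, and to 3618 (2821 and 797) with that term in WT libraries alone. Leaving out 1 library at a time gave 729 to 1994 calls, 608 to 1600 higher and 121 to 394 lower. The lower extremes came without WT TAC 17 (729, 608 and 121), and counts also moved past 1.5-fold without WT sham 7 (883, 743 and 140) and, for the lower genes, without WT TAC 19 (162), WT sham 15 (145) or WT sham 6 (394). In the 5 libraries without WT sham 6 and WT TAC 1, quantile normalization gave 1011 higher and 1062 lower genes, centring 971 and 1221, and leaving out 1 more library 1224 to 1912 calls, and 1 group then rests on as few as 1 library, assumed to vary like the other. Other pseudocounts, the filters, robust eBayes and the removal of genes listed through WT TAC alone kept these counts within 1.5-fold. Of the 200 named genes 22 lost their call without WT TAC 17 and 20 with quantile normalization. No paired analysis was possible because the WT TAC and WT sham libraries share no replicate numbers. RPKM without counts gives no depth, so the error of low values is unknown, and genes under 3 RPKM in every library were not analysed here.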
